A study of Mus musculus with 8 samples.

Results

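The 8 genes described here are the mouse SOCS (suppressor of cytokine signalling) family, Socs1 to Socs7 and Cish, chosen by name from the gene annotation. The choice was made with earlier results of these data known. All 8 were found, each under 1 Ensembl identifier, among the 53647 identifiers counted, and all 8 passed the filter on low counts that left 15603 genes for testing. RNA was sequenced from wild-type primary myotubes, the multinucleated fibres that form when muscle precursor cells fuse in culture, here grown from limb-muscle precursors of mouse pups 2 to 3 days old. Per the labels, the 4 groups of 2 libraries each were control myotubes with no named cytokine and myotubes given interleukin 6 (IL6), leukaemia inhibitory factor (LIF) or oncostatin M (OSM) for 48 h, each cytokine at 250 ng/ml, and all cells were harvested 72 h into differentiation. All groups share the WT genotype and 1 culture protocol. Whether a pair of replicates stands for separate animals or dishes is not in the labels, so p-values measure only the spread between these libraries, which may be technical.

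OSM, LIF and IL6 signal through receptors that contain the shared subunit gp130, which switches on JAK kinases and, through them, STAT transcription factors. STAT factors in turn transcribe SOCS genes, and the SOCS proteins shut the signal down, a classic negative feedback loop. Each SOCS protein has an SH2 domain, which binds phosphotyrosine on a receptor or kinase, and a C-terminal SOCS box, which recruits elongins B and C and a cullin ubiquitin ligase. SOCS1 and SOCS3 can also block the JAK catalytic site directly, and SOCS3 docks on gp130 itself.

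The promoter sequences are shown first because the STAT-binding motif is the known link between these cytokines and the family. The RefSeq promoter table (build GRCm38.p6) matched 4 of the 8 members, Socs1, Socs3, Socs4 and Cish. The submitters' processing notes name a later build, GRCm39, so the coordinates below belong to the promoter table and not to the counting. Shown 5′ to 3′ on the gene's strand are the 250 bases before the annotated start of Socs3 (chr11:117969367-117969616, minus strand), Cish (chr9:107296409-107296658, plus strand) and Socs1 (chr16:10785537-10785786, minus strand), the matched members best known as cytokine-inducible, with the STAT motif TTCNNNGAA in capitals.
Socs3: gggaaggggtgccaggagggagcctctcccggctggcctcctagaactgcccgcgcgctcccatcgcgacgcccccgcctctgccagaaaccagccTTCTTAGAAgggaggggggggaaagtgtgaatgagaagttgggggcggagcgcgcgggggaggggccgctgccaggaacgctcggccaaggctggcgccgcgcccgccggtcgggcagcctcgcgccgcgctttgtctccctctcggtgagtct
Cish: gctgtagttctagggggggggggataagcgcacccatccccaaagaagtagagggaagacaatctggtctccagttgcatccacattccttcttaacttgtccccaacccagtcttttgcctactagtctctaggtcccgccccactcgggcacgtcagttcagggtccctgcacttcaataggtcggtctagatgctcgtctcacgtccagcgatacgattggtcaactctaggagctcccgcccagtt
Socs1: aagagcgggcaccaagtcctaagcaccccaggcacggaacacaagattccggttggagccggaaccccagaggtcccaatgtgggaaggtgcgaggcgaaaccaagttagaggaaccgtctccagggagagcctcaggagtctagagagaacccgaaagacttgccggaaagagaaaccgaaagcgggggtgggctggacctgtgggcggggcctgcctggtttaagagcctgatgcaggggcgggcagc
The motif reads the same on both strands. Socs3 held 1 copy, TTCTTAGAA, from 154 to 146 bases before the start. The windows of Cish, Socs1 and Socs4 (chr14:47276670-47276919, plus strand) held none, which says only that these letters are not in these windows. The variant with a wider gap, TTCNNNNGAA, was in none of the 4 windows. Over all 32851 promoter windows of this length in the table, 7.02% held TTCNNNGAA and 5.85% held TTCNNNNGAA. A match is a description of the sequence and not a measured binding site.

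The libraries were of nearly equal depth, from 29482077 to 30025471 gene counts. Levels are given as CPM, counts scaled for library size with TMM factors (trimmed mean of M values). Differences are log2 values from edgeR's quasi-likelihood fit of all 8 libraries with a standard error (SE) and a 95% interval. A gene was called at a Benjamini-Hochberg adjusted p under 0.05 over all 15603 genes. With 2 libraries against 2, an exact permutation test of a single gene cannot go below p = 0.333, so the tests rest on the fit across genes. Myotube markers were abundant throughout. The summed level of the 8 listed genes (such as Acta1, Myh3 and Ttn) was 20450 to 21520 CPM in control. It was 17570 to 20110 with IL6, 19070 to 20170 with LIF and 18110 to 18330 with OSM, all below control. Myog was called lower with OSM (−0.53, adjusted p = 0.000696) and LIF (−0.43, adjusted p = 0.00826). Des was called higher with OSM (0.30, adjusted p = 0.00411) and LIF (0.55, adjusted p = 0.000181), and the other 6 with neither. Other marker sums moved with the treatments as well. The summed level of 6 myoblast and cycling markers was 692 to 815 CPM in control, 650 to 700.4 with IL6, 523 to 559 with LIF and 243 to 281 with OSM. The cycling genes Mki67, Top2a, Ccnb1 and Cdk1 were each called lower with OSM and with LIF, whereas the myoblast genes Pax7 (0.39, adjusted p = 0.000852) and Myf5 (0.82, adjusted p = 0.0316) were called higher with OSM and were not called with LIF. That of 7 fibroblast markers was 1652 to 1717 CPM in control, 1504 to 1704 with IL6, 1984 to 2047 with LIF and 2059 to 2167 with OSM, with Lum at 0 counts and Thy1 at 10 counts or fewer in every library. Most of that sum was Col3a1, at a mean of 1433 CPM in control and 2018 with OSM (0.49, adjusted p = 0.000373). Pdgfra was also called higher with OSM (0.53, adjusted p = 0.0193), and Col3a1 was called higher with LIF (0.37, adjusted p = 0.00849). Col1a1 had means of 239 CPM in control and 78.4 with OSM (−1.61, not called, adjusted p = 0.0858). Of the 5 fibroblast markers tested, 3 were not called with OSM and 4 were not called with LIF. These names were picked after their values were seen. The 6 macrophage markers summed to 8.496 to 9.916 CPM in control, 10.7 to 15.4 with IL6, 14.6 to 15.3 with LIF and 14.97 to 16.21 with OSM. Adgre1, Csf1r and Lyz2 were at 10 counts or fewer everywhere. Of the 3 tested, Cd68 (1.03, adjusted p = 0.00186) and Mrc1 (0.68, adjusted p = 0.0145) were called higher with OSM. Mrc1 was also called higher with LIF (0.81, adjusted p = 0.012), and Itgam was called with neither. The part of these markers in the results below was not tested, and in bulk RNA fewer cells of a type and less RNA per cell cannot be told apart.

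Across the family, OSM raised 3 genes, Socs3, Socs2 and Socs5, LIF raised 2, Socs3 and Socs2, and IL6 raised none that passed the test. No member fell. The 3 members called with OSM are 37.5% of 8, against 21.4% of all genes tested that were called in either direction and 10.8% called higher. With LIF the 2 called members are 25% of 8, against 7.66% of all genes called and 4.2% called higher. Because the family was chosen with earlier results of these data known, these shares are a description, and the family was not tested as a set. With IL6 the background was 0%, since no gene of 15603 was called. Before adjustment, edgeR's p was under 0.05 for 795 genes with IL6 (5.1%), of which Socs3 was the only member, and DESeq2 called 19 genes and 0 members. The median log2 change over the 8 members was 0.25 with OSM, 0.07 with LIF and −0.02 with IL6, beside −0.003, −0.008 and 0.001 over all genes.

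**Figure D1:**
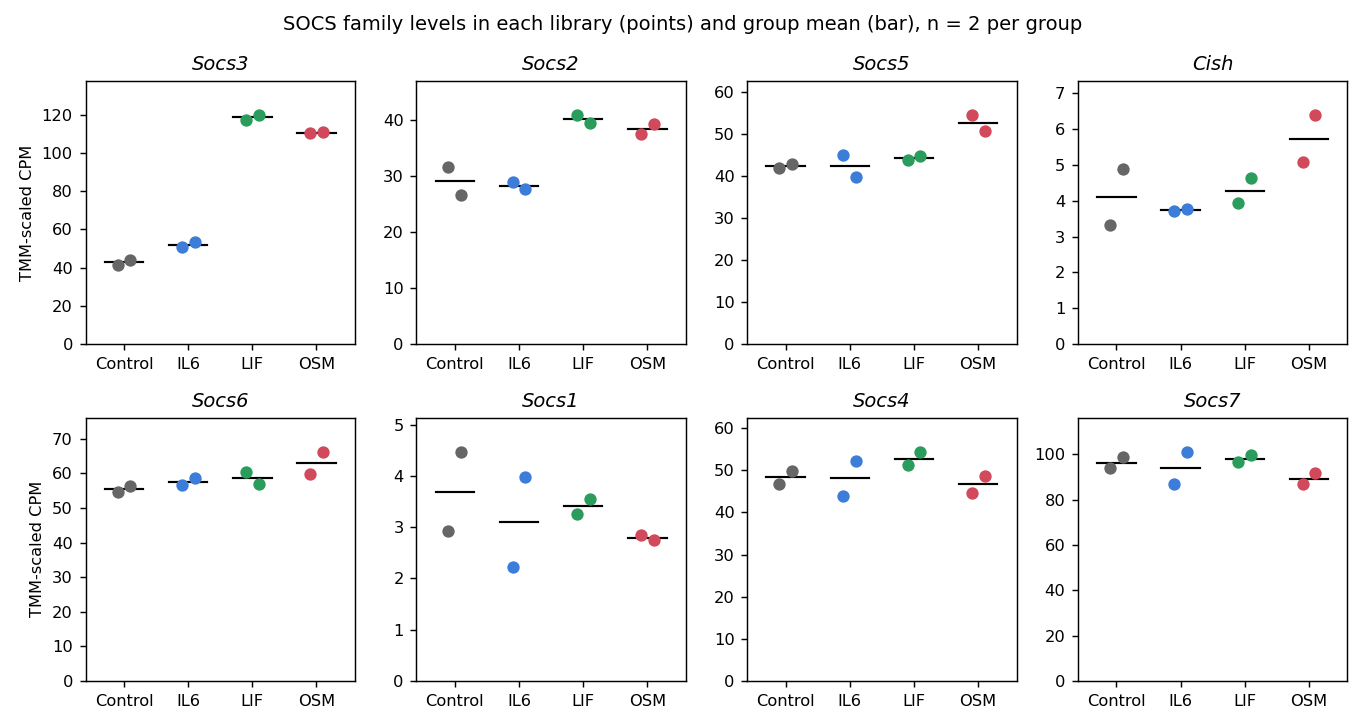
Level of each of the 8 genes in every library (points, TMM-scaled CPM, axes from 0, left to right by group) with the mean of each group of 2 (bar). Socs3 separates LIF and OSM from control and IL6 by the widest margin, with 117 and 120 CPM under LIF against 41.6 and 44.2 CPM in control, while Socs1 and Cish stay below 7 CPM.

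Socs3 (ENSMUSG00000053113), the feedback inhibitor that acts on gp130, had the largest change of the family. Its level was 41.6 and 44.2 CPM in the control libraries, 50.6 and 53.3 with IL6, 117 and 120 with LIF, and 110.2 and 110.7 with OSM. The 4 groups did not overlap, in the order control, IL6, OSM, LIF. The log2 change was 1.37 with OSM (SE 0.063, interval 1.23 to 1.502, adjusted p = 1.38e-08), a 2.58-fold rise. With LIF it was 1.47 (SE 0.063, interval 1.33 to 1.60, adjusted p = 3.15e-08), a 2.76-fold rise. By size, this was the 158th largest change of 15603 under LIF and the 598th under OSM.

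Between OSM and LIF no difference in Socs3 was called. The difference, OSM minus LIF, was −0.10 (interval −0.23 to 0.03, adjusted p = 0.398), although both LIF libraries lay above both OSM libraries. Non-overlap of this kind is common here, as 56.6% of all genes had non-overlapping OSM and LIF libraries. IL6 gave a small difference in Socs3, 0.28 (SE 0.065, interval 0.14 to 0.42), which did not pass (adjusted p = 0.514), although both IL6 libraries were above both controls. IL6 and control libraries did not overlap in 28.2% of all genes. Set directly against IL6, Socs3 was higher by 1.09 with OSM (SE 0.062, adjusted p = 1.02e-07) and by 1.19 with LIF (SE 0.062, adjusted p = 3.38e-07), and in these comparisons 3 and 2 of the 8 members were called, all higher. Of all genes, 15.5% were called between OSM and IL6 (8.02% higher) and 2.78% between LIF and IL6 (1.76% higher).

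Socs2 (ENSMUSG00000020027), best known for limiting growth hormone receptor signalling, rose with both LIF and OSM by a smaller amount. The control libraries stood at 31.6 and 26.6 CPM and the IL6 libraries at 29.0 and 27.7. LIF gave 40.8 and 39.5 CPM, and OSM 37.4 and 39.4. Control and IL6 overlapped, and both treated groups lay above them. The rise was 0.40 with OSM (SE 0.087, interval 0.21 to 0.59, adjusted p = 0.0052), or 1.32-fold, and 0.46 with LIF (SE 0.087, interval 0.28 to 0.65, adjusted p = 0.00539), or 1.38-fold. The OSM call was lost without OSM replicate 2 (adjusted p = 0.0568), and the LIF call without either LIF library (adjusted p = 0.0687 and 0.0521), which leaves a single LIF library whose spread is assumed from the other groups. OSM and LIF differed by −0.06 (interval −0.25 to 0.12, adjusted p = 0.752). Against IL6, Socs2 was higher by 0.44 with OSM (adjusted p = 0.00361) and by 0.50 with LIF (adjusted p = 0.00816); the LIF difference was lost without LIF replicate 1 (adjusted p = 0.127) or LIF replicate 2 (adjusted p = 0.0807). Some Socs2 sequence also occurs elsewhere, since 7.23% of the 50-base stretches of its longest transcript are shared with Gm8000 or Gm9847, and how reads that map to several places were counted is not given in the sources used here.

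Socs5 (ENSMUSG00000037104), linked to restraint of EGF receptor signalling, was called with OSM. Its level was 41.9 and 43.0 CPM in control, 45.1 and 39.8 with IL6, 43.9 and 44.8 with LIF, and 54.4 and 50.8 with OSM. Both OSM libraries were above all 6 others. The rise with OSM was 0.31 (SE 0.076, interval 0.15 to 0.47, adjusted p = 0.0105), or 1.24-fold, and it was lost without OSM replicate 1 (adjusted p = 0.119) or control replicate 1 (adjusted p = 0.0522). With LIF the difference from control was 0.06 (interval −0.10 to 0.23, adjusted p = 0.716). Whether OSM and LIF differ for Socs5 depends on the fit. The direct difference was 0.25 (SE 0.076, adjusted p = 0.0688), and 5 of 13 alternatives passed, over a range of adjusted p from 0.00511 to 0.43. Against IL6, Socs5 was higher with OSM by 0.31 (adjusted p = 0.0134), a call lost without IL6 replicate 2 (adjusted p = 0.0741) or OSM replicate 1 (adjusted p = 0.145).

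**Figure D2:**
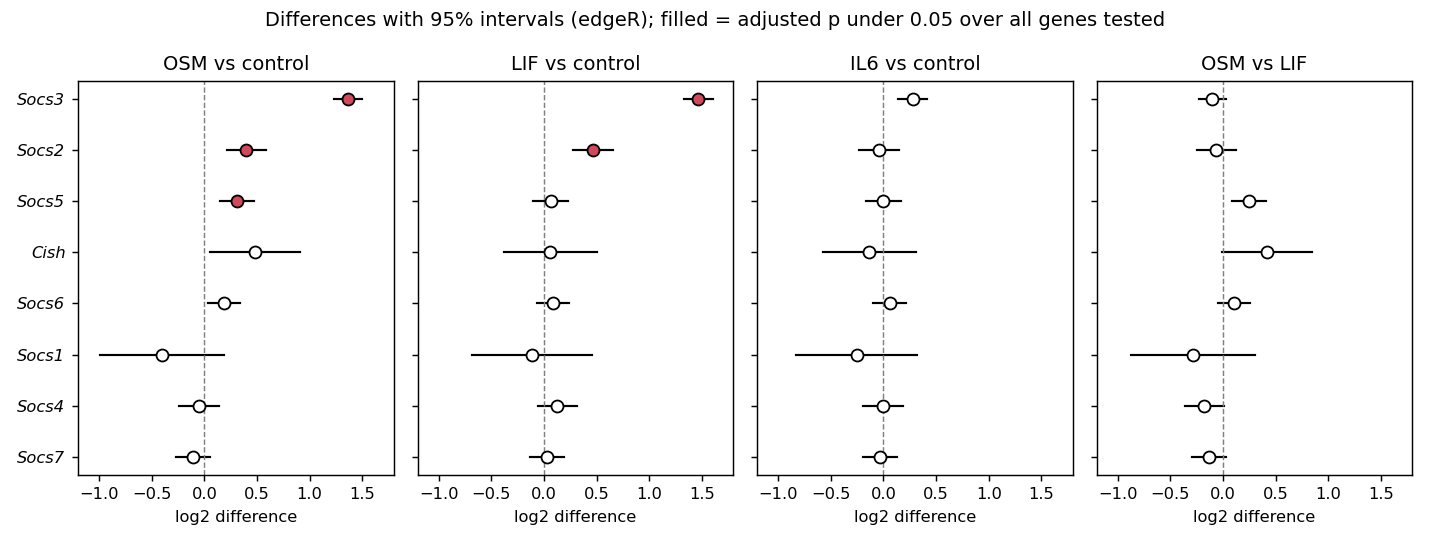
Log2 difference (points) with its 95% interval (lines) for each member in 4 comparisons, filled where the adjusted p was under 0.05. Socs3 stands at 1.37 under OSM and 1.47 under LIF, every other interval of a change from control ends below 1, and no point is filled for IL6 or for OSM against LIF.

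Cish (ENSMUSG00000032578), the STAT5-induced founder of the family, was low. Its libraries held 97 and 145 counts in control (3.33 and 4.87 CPM), 112 in each with IL6 (3.71 and 3.78 CPM), 117 and 138 with LIF (3.94 and 4.62 CPM), and 148 and 190 with OSM (5.06 and 6.38 CPM). The OSM libraries were the highest, and all 4 IL6 and LIF libraries lay between the 2 controls. The difference was 0.48 with OSM (SE 0.20, interval 0.05 to 0.91), which did not pass (adjusted p = 0.107) but passed without control replicate 2 (0.79, adjusted p = 0.0233). It was 0.23 without control replicate 1 (adjusted p = 0.52) and 0.31 without OSM replicate 2 (adjusted p = 0.486). With LIF it was 0.06 (interval −0.38 to 0.50) and with IL6 −0.13 (interval −0.58 to 0.31). OSM against IL6 gave 0.61 (adjusted p = 0.0545), a value that fell on either side of the threshold over the alternatives (adjusted p from 0.00982 to 0.347). Of the Cish exon bases, 7.46% lie opposite Gm17041, an antisense gene with 1 count in control replicate 1 and 0 counts in the other 7 libraries, and 13.2% of its 50-base stretches occur in other genes.

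Socs1 (ENSMUSG00000038037), an inhibitor induced by interferons that blocks JAK kinases, was the other low member. It had 85 and 133 counts in control (2.92 and 4.47 CPM), 67 and 118 with IL6 (2.22 and 3.98 CPM), 97 and 106 with LIF (3.26 and 3.55 CPM), and 83 and 82 with OSM (2.84 and 2.75 CPM). Control and IL6 each spread more widely than the gap between any group means. The difference was −0.40 with OSM (SE 0.27, interval −0.99 to 0.18, adjusted p = 0.333). For LIF it was −0.12 (interval −0.69 to 0.45) and for IL6 −0.26 (interval −0.83 to 0.32). At this depth, counting error alone is 9.58% of the mean control count for Socs1 and 9.09% for Cish, against 2.81% for Socs3.

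Socs4, Socs6 and Socs7 were expressed well above Socs1 and Cish and were not called in any of the 6 comparisons. Socs6 (ENSMUSG00000056153), which binds insulin receptor and KIT signalling proteins, was at 54.5 and 56.2 CPM in control, 56.7 and 58.5 with IL6, 60.4 and 57.0 with LIF, and 59.7 and 66.1 with OSM. Its OSM difference of 0.18 (interval 0.03 to 0.34) missed the threshold (adjusted p = 0.0839). Socs6 shares 11.7% of its 50-base stretches with Gm13188 or Gm9449. Socs4 (ENSMUSG00000048379), a relative of Socs5, ranged from 43.9 to 54.3 CPM over the 8 libraries, with the lowest and 52.3 CPM both in the IL6 group. Its differences from control were −0.05 with OSM (interval −0.24 to 0.14), 0.13 with LIF (−0.06 to 0.32) and −0.01 with IL6 (−0.20 to 0.18). Socs7 (ENSMUSG00000038485), an adaptor-binding member linked to insulin signalling, had the highest raw level of the family in control. It ranged from 86.8 to 101 CPM over all libraries. Its differences were −0.11 with OSM (interval −0.27 to 0.05), 0.03 with LIF (−0.13 to 0.19) and −0.04 with IL6 (−0.20 to 0.12). Over these 3 genes and the 3 cytokines, the intervals of the difference from control lay between −0.27 and 0.34.

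The libraries of OSM and control did not overlap for 7 of the 8 members, 5 higher and 2 lower, beside 60.9% of all genes (29.9% higher and 31% lower). For LIF it was 5 of 8, all higher, beside 52% (25.2% higher), and for IL6 2 of 8, Socs3 and Socs6, both higher, beside 28.2% (14% higher). Only the calls above are treated as changes. None of the 8 members was called between OSM and LIF, where 8.04% of all genes were. Before adjustment only Socs5 had a p under 0.05 in edgeR, beside 20.7% of all genes, and DESeq2 called 0 members. Fitted with those 2 groups alone, edgeR called 2, Socs5 and Socs4 (−0.18, adjusted p = 0.047).

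Levels can be compared between genes only per length, here as CPM per kilobase of the longest coding transcript in GENCODE M21. In control the order was Socs3 (16.8 ± 0.72, SD, n = 2), Socs7 (13.7 ± 0.51), Socs2 (13.1 ± 1.6), Socs6 (9.17 ± 0.20), Socs5 (9.13 ± 0.16), Socs4 (7.03 ± 0.32), Cish (1.44 ± 0.38) and Socs1 (1.27 ± 0.38). The libraries of Socs7 and Socs2, of Socs6 and Socs5, and of Cish and Socs1 overlapped, so those neighbours are not ordered beyond their spread. With LIF, Socs3 stood at 46.4 ± 0.61 and Socs2 at 18.1 ± 0.43, ahead of Socs7 at 14.0 ± 0.34. With OSM these 3 levels were 43.3 ± 0.14, 17.3 ± 0.62 and 12.7 ± 0.51. Scaled by all annotated exon bases instead, which adds long alternative exons, Socs2 fell in rank from the third place in control to the sixth (3.06 CPM per kilobase) and Cish to the last (0.639), while Socs3 stayed first in all 4 groups.

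Summed over the 8 genes on the coding-transcript scale, the family level was 70.9 and 72.4 CPM per kilobase in control, 72.8 and 76.3 with IL6, 107.5 and 108.7 with LIF, and 103.2 and 106.3 with OSM. The LIF and OSM libraries were all above the control and IL6 libraries. Socs3 made up 23.0% and 23.9% of the sum in control, 27.2% and 27.4% with IL6, 42.8% and 43.1% with LIF, and 41.8% and 40.8% with OSM. The Socs3 share was highest under LIF and OSM, and Socs7 went from 18.9% and 19.5% of the sum in control to 12.0% and 12.3% with OSM. On the scale of all exon bases the Socs3 share was 28.6% and 28.9% in control and 51.1% and 51.0% with LIF.

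**Figure D3:**
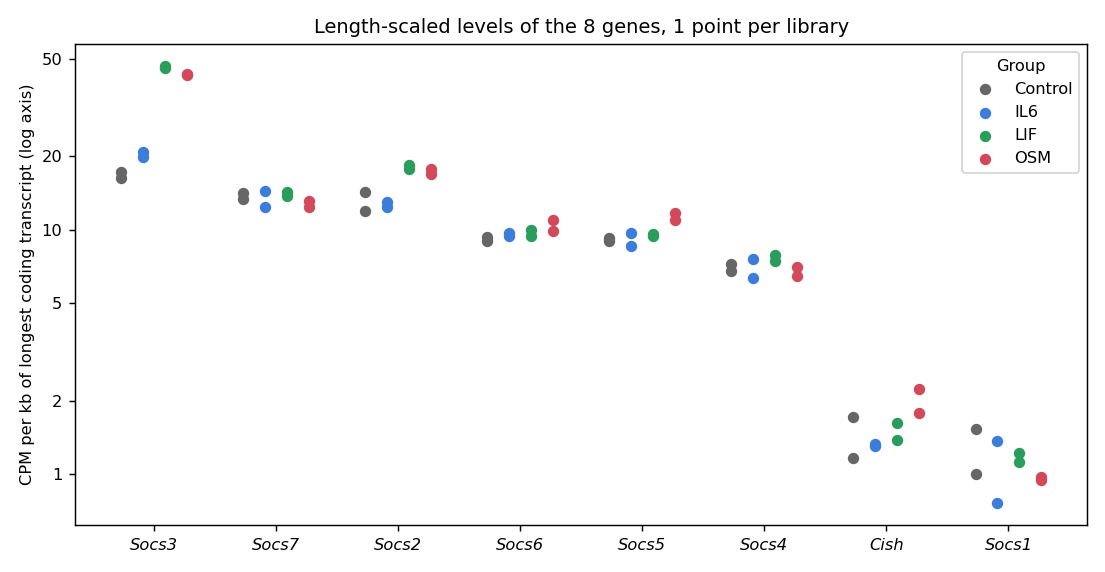
CPM per kilobase of the longest coding transcript for the 8 genes (log axis, 1 point per library, colour by group), ordered by control mean. Socs3 rises from 16.3 and 17.3 in control to 43.2 and 43.4 with OSM, and Cish and Socs1 lie far below the other 6 genes in every group.

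Genes whose pattern over the 8 libraries was most like that of each called member were sought by Pearson r of log2 CPM among 10739 protein-coding genes (mean count 100 or more). The 8 points share the group structure, so r is a description. Closest to Socs3 were Rps6ka1 (r = 0.997), which encodes a ribosomal S6 kinase, and Rsad2 (r = 0.997), an interferon-inducible antiviral gene. Rps6ka1 was at 21.0 and 22.5 CPM in control, 23.2 and 24.5 with IL6, 34.3 and 34.3 with LIF, and 33.9 and 32.7 with OSM. Its 2 upper groups were well apart from control, with log2 changes of 0.61 under OSM (adjusted p = 8.3e-05) and 0.66 under LIF (adjusted p = 0.000249). Rsad2 rose further, by 2.77 with OSM and 3.00 with LIF (adjusted p = 1.43e-08 and 3.15e-08).

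Closest to Socs2 were Isg15 (r = 0.982), a ubiquitin-like interferon-induced gene, and the kinase genes Nek6 (r = 0.980) and Map4k3 (r = 0.977). Nek6 was called higher with OSM (0.26, adjusted p = 0.0246) and LIF (0.385, adjusted p = 0.00641). Map4k3 was called with neither (0.12 and 0.14, adjusted p = 0.287 and 0.313). For Isg15 the OSM rise was called (0.925, adjusted p = 0.0455) and the LIF difference was not (1.07, adjusted p = 0.0535). Isg15 was at 10.3 and 4.77 CPM in the control libraries, so, like Socs2, it was higher in control replicate 1. Closest to Socs5 were Src (r = 0.997), a tyrosine kinase gene, Pnpla6 (r = 0.989), which encodes a phospholipase, and Zyx (r = 0.986), which encodes a focal adhesion protein. Src was at 15.3 and 16.0 CPM in control, 16.7 and 14.6 with IL6, 15.9 and 16.5 with LIF, and 20.3 and 19.1 with OSM, which is the Socs5 pattern with its split IL6 pair. Zyx was called between OSM and LIF (0.34, adjusted p = 0.00967), as was Pnpla6 (0.35, adjusted p = 0.0327), whereas Src was not (0.28, adjusted p = 0.108).

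**Figure D4:**
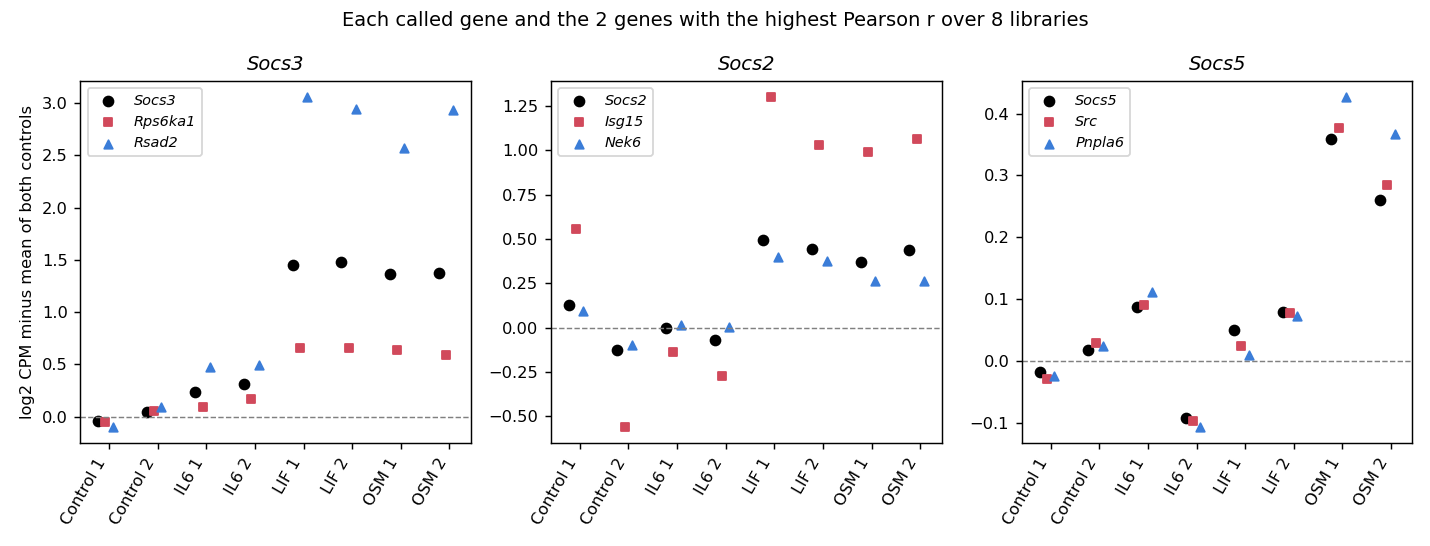
Log2 CPM minus the mean of both controls in each library for Socs3, Socs2 and Socs5 (black circles) and the 2 genes most like each. Rsad2 follows Socs3 in shape at a larger scale (2.77 against 1.37 with OSM), and the Socs5 set is highest in the 2 OSM libraries.

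No partner through which the SOCS box acts passed the test. Of the 6 genes for elongins, cullins and RING subunits, none was called with OSM, LIF or IL6, and the median change with OSM was −0.01. Elob and Eloc, the elongin B and C genes, differed from control by 0.06 and 0.02 with OSM, and Cul5, the cullin of this ligase, by 0.10 (interval −0.05 to 0.24). Before adjustment edgeR gave a p under 0.05 to 0 of the 6 with OSM or IL6 and to 1 with LIF, Cul5 (0.15, interval 0.005 to 0.29), and DESeq2 called 0 with each cytokine.

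Other genes with a SOCS box are the Asb, Spsb, Wsb and Rab40 families, Neurl2 and Lrr1. Of 28 listed, 25 were tested, and 4 rose and 1 fell with OSM (median 0.13), which is 20% called, near the 21.4% of all genes. Asb18 rose by 1.60 (adjusted p = 0.0213) from 0.271 CPM, and Asb11 by 0.73 (adjusted p = 0.0245). Lrr1, which acts in the disassembly of the replication machinery, fell by 2.12 (adjusted p = 0.000628), from 1.85 to 0.423 CPM. Its direction was that of the 4 cycling genes above, whose part in it was not tested. With LIF 2 were called higher, Asb16 by 0.57 (adjusted p = 0.00893) and Asb5 by 0.45 (adjusted p = 0.00124), and none lower (median 0.05). That is 8% called beside 7.66% of all genes. The OSM count was 3 without control replicate 2, 3 without OSM replicate 1 and 2 without OSM replicate 2, and the LIF count was 1 without either LIF library.

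JAK-STAT signalling has inhibitors outside the SOCS family, among them the PIAS genes and tyrosine phosphatases. Of 12 listed, 11 were tested and 1 rose with OSM (median 0.002), Ptpn1, whose phosphatase PTP1B removes phosphate from JAK2 and TYK2. That is 9.09% called, beside 21.4% of all genes with OSM and 7.66% with LIF. Ptpn1 rose by 0.49 (SE 0.075, adjusted p = 0.000352), and it was higher with OSM than with LIF by 0.35 (adjusted p = 0.00932). None of the 11 was called with LIF (median −0.03) or IL6 (median −0.01), by edgeR or DESeq2, and before adjustment edgeR's p was under 0.05 for 0 and 1 of them. The OSM count was 2 without control replicate 2 or either IL6 library. Ptpn11, the SHP2 phosphatase gene that binds the same gp130 site as SOCS3, differed from control by 0.002 with OSM and −0.002 with LIF.

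The kinases and factors that SOCS proteins restrain moved as well. Over all genes, 21.4% were called with OSM (10.8% higher) and 7.66% with LIF (4.2% higher). Of 11 JAK and STAT genes 10 were tested, and with OSM 9 rose (5 genes of the list were called without OSM replicate 1), led by Stat5a (1.09, adjusted p = 2.07e-07) and Jak2 (0.83, adjusted p = 4.07e-06). With LIF 5 rose (3 without LIF replicate 2), including Stat2 (0.89, adjusted p = 3.23e-05). Of 18 receptor genes that SOCS proteins are known to limit, 15 were tested, and 9 rose with OSM (median 0.24; 5 without OSM replicate 1 and 4 without OSM replicate 2) and 4 with LIF (median 0.12; 1 without LIF replicate 2). Lepr, the leptin receptor gene and a known SOCS3 target, rose by 3.03 with OSM (adjusted p = 5.92e-06) from 0.980 CPM, and Egfr by 0.90 (adjusted p = 1.47e-05). Among 6 adaptor genes 1 rose with OSM (median 0.05), Ptk2 by 0.22 (adjusted p = 0.0423), a call lost without either LIF or either OSM library, and none with LIF (median −0.03; 1 called without control replicate 1, 1 under an unadjusted p of 0.05, 0 by DESeq2).

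STAT3 and STAT5 targets outside the family are given beside Socs3 and Cish. The shares called over all genes were 21.4% with OSM (10.8% higher), 7.66% with LIF (4.2% higher) and 8.04% between OSM and LIF. Of 15 STAT3 targets other than the family, 8 rose and 1 fell with OSM (median 0.42), and 8 rose with LIF (median 0.26; 5 called without control replicate 1 or LIF replicate 2). Serpina3n rose by 5.69 with OSM, Timp1 by 1.81 and Il4ra by 1.78. Between OSM and LIF, 4 of the 15 were called higher with OSM, 1 lower and 10 not called, with 8 positive and 7 negative differences (median 0.09). Serpina3n, Timp1 and Il4ra, which were named for their large OSM changes, were among those called higher, by 1.67, 1.002 and 0.72 (adjusted p = 0.00052, 3.64e-06 and 8.84e-05). Of 6 STAT5 targets, with which Cish and Socs2 are usually grouped, 2 rose and 1 fell with OSM (median −0.02), and 1 rose and 1 fell with LIF (median 0.02; 1 called in all without control replicate 2 or either LIF library). Among these, Pim2 rose by 0.55 with OSM (adjusted p = 0.00483) and Ccnd1 fell by 0.79 (adjusted p = 1.3e-05). With IL6 no gene of these related lists was called by edgeR or DESeq2. Before adjustment, edgeR's p for IL6 was under 0.05 for 3 STAT3 targets, 2 receptors, 1 other SOCS box gene and 1 other inhibitor. Some of these passed without 1 library, namely 2 STAT3 targets and 1 receptor without IL6 replicate 2.

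**Figure D5:**
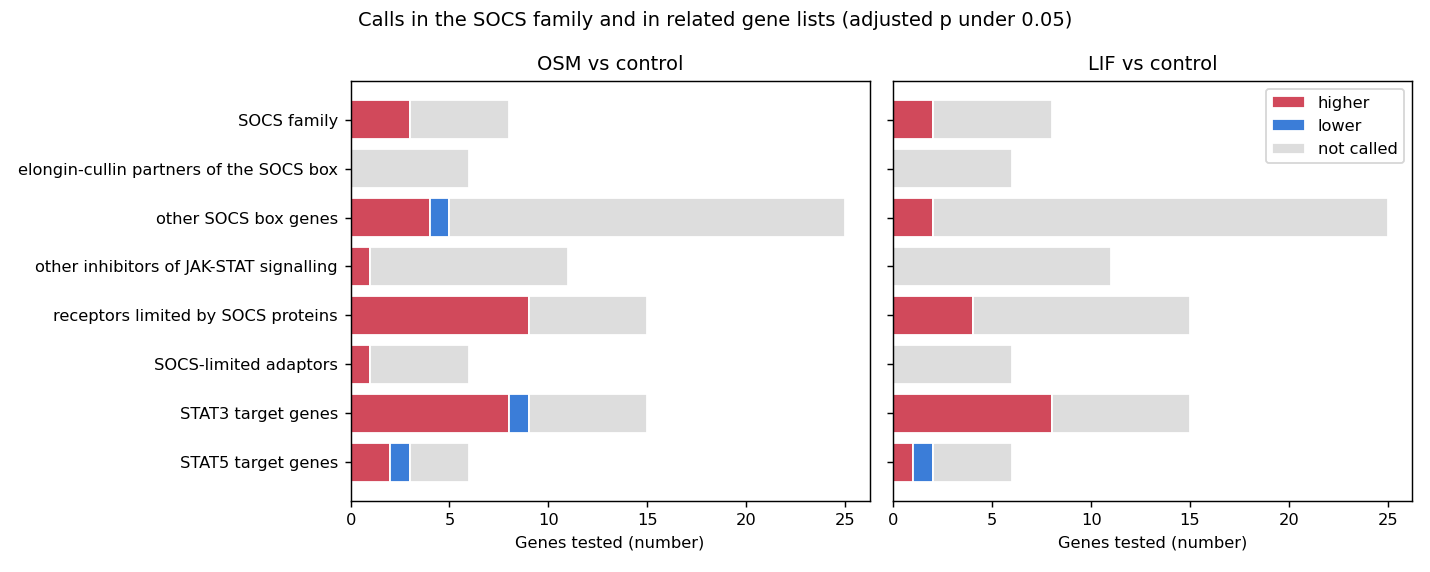
Number of genes tested (bars from 0) that were called higher, called lower or not called in the SOCS family and related lists, for OSM and LIF against control. With OSM the SOCS family has 3 of 8 called, the elongin-cullin partners 0 of 6, and the receptors 9 of 15, against 21.4% of all genes. With LIF these counts are 2 of 8, 0 of 6 and 4 of 15, against 7.66% of all genes.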

How the data were processed

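The authors deposited raw read counts per gene, 1 file for each library. The kit selects poly(A) RNA and keeps its strand, per the labels' protocols. Trim Galore 0.6.5, STAR 2.7.3a, HTSeq 0.11.1 and the build GRCm39 are named in the submitters' processing notes, and the strand setting and annotation release are not given in the sources used here. Summary lines that name no gene, 11.7% to 12.7% of the recorded alignments, were left out. Symbols, exon lengths and shared sequence came from GENCODE M21 (GRCm38), which holds 52094 of the 53647 identifiers, and promoters from RefSeq (GRCm38.p6).

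Counts were tested with edgeR 4.0.16 in R 4.3.3: filterByExpr with a minimum count of 10, TMM scaling, a robust quasi-likelihood fit with a mean for each of 4 groups (4 residual degrees of freedom), 6 contrasts, and Benjamini-Hochberg adjustment over all 15603 genes. SEs came from the fitted weights and the moderated dispersion. The script was tested on simulated data. Alternatives were RLE scaling, no filter, DESeq2 1.42.0, fits of only the groups compared, a replicate block and leaving out each library. Replicates differed by more than counting error in every group (chi-square per gene 3.04 to 12.3). Members and lists were chosen with earlier results of these data known, and no list was tested as a set. Named were all 8 members, the 3 genes most like each called member, and of the other lists the called genes with the largest changes (up to 3 with OSM, 2 with LIF) and any JAK-STAT or elongin-cullin gene. Lists cover elongin-cullin partners, other SOCS box genes, other JAK-STAT inhibitors, JAK and STAT genes, receptors, adaptors, STAT3 and STAT5 targets, and markers of cell types. Some genes and 1 list that the rule covers are not reported here. Markers of endothelial cells, lymphocytes and Schwann cells summed to at most 2.96 CPM per list, and only 2 of 6, 0 of 6 and 1 of 4 passed the filter on low counts.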

Additional observations from a re-analysis of the deposited data

How the results depend on the processing

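Socs3 kept its direction and its call with OSM and LIF, against control and against IL6, under all 13 alternatives. Of 622 alternative values for single members, 575 kept direction and side of the threshold, 9 lost a call, 13 gained one and 25 changed sign, all 25 for differences that were not called. Leaving out each library gave 2 to 4 called members for OSM against control and for OSM against IL6, 1 to 2 for LIF against control and for LIF against IL6, 0 for IL6 against control and 0 to 1 for OSM against LIF. OSM against LIF gave 1 without a filter on low counts, 1 with the replicate block and 2 with only those groups in the fit. Over all genes, leaving out each library gave 1622 to 4067 calls for OSM against control (3335 in the full fit), 316 to 1688 for LIF (1195), 0 to 221 for IL6 (0), 437 to 1764 for OSM against LIF (1255), 1105 to 2713 for OSM against IL6 (2426) and 82 to 739 for LIF against IL6 (434). IL6 against control gave 97 without a filter, 19 with DESeq2 and 9 with the replicate block. OSM against LIF gave 2928 with only those groups, and LIF against IL6 gave 985 without a filter and 826 with the block. The causes were not tested. Sign changes on leaving out a library spanned, against control, Socs4 from −0.105 to 0.016 with OSM, Socs1 −0.39 to 0.229, Socs7 −0.011 to 0.07 and Cish −0.186 to 0.367 with LIF, and Socs1 −0.738 to 0.106, Socs2 −0.158 to 0.09, Socs4 −0.141 to 0.114, Socs5 −0.094 to 0.086, Socs7 −0.152 to 0.068 and Cish −0.38 to 0.17 with IL6. For OSM against IL6 they spanned Socs1 −0.503 to 0.336, Socs4 −0.158 to 0.092 and Socs7 −0.171 to 0.043, and for LIF against IL6 Socs1 −0.222 to 0.621, Socs5 −0.021 to 0.16, Socs6 −0.016 to 0.068 and Socs7 −0.039 to 0.179. Socs5 with IL6 was 0.003 in the fit of those groups alone. Same-numbered libraries deviated together with correlations of 0.007 to 0.181 over the 6 pairs of groups, so the numbers are not taken to pair the libraries. With the replicate block, Cish passed for OSM against control (0.485, adjusted p = 0.0418) and against IL6 (0.604, adjusted p = 0.0168), Socs5 for OSM against LIF (0.245, adjusted p = 0.0346), and no other member's call changed.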
